A study of Mus musculus with 12 samples.

Results

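Ltb, Pak1, Stk26, Mogat2, Slc16a9 and Sh3bgrl2 are 6 mouse genes whose RNA was higher with doxycycline than without it in each of 3 sorted cell populations in which doxycycline switches on RUNX1-EVI1. They were chosen by that difference in FPKM, from the 35976 gene names in the data, of which 13316 passed a filter on low values and were tested. RUNX1-EVI1, a fusion protein found in leukaemia, links the blood-forming transcription factor RUNX1 to EVI1, the zinc finger product of Mecom. The difference that chose the genes is therefore described below without a test, and tests are given only for comparisons that did not choose them.

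RNA was sequenced from 12 libraries in 6 groups of 2 biological replicates, which the labels describe no further, so p-values measure the spread between these samples. All 6 groups came from A2lox.cre mouse embryonic stem cells carrying the doxycycline-inducible RUNX1-EVI1 construct, grown from single colonies whose number is not given in the sources used here. FLK1+ cells were taken from embryoid bodies after 3.25 days and cultured for 1 day with D4T-conditioned medium, mVEGF and mIL-6. The NoDox groups then received 0 µg/ml and the PlusDox groups 0.5 µg/ml doxycycline for 18 h, before sorting into 2 haemogenic endothelium populations, HE1 and HE2, and haematopoietic progenitors, HP. Haemogenic endothelium is the vessel-lining cell type from which blood cells arise. No group without the construct was given doxycycline, so effects of the drug and of the fusion cannot be told apart. In these bulk samples, a change in which cells a gate holds and a change in RNA per cell cannot be told apart either.

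Values are FPKM, in which fragment numbers are divided by transcript length and library size, so levels may be compared between genes. Read counts were not used here and the absolute depth is unknown. Low values put the depth of 11 libraries at 0.58 to 1.591 of the median, on a scale that 51 of 66 pairs of libraries kept within 0.1 on the log2 scale. The estimate for PlusDox HP replicate 1 was ambiguous. Genes at 1 FPKM or more numbered 11461 to 12174 per library. In 5 libraries Lars2, a mitochondrial leucyl-tRNA synthetase gene, stood at 10220 to 19970 FPKM, against 24.01 to 224.4 FPKM in the other 7. Those 5 were the second replicate of PlusDox HE1, PlusDox HE2, PlusDox HP and NoDox HP, and the first of NoDox HE1, so this split was uneven over the groups. Summed levels of 10 endothelial markers were 1700 to 2320 FPKM in NoDox HE1, 973 to 1460 in NoDox HE2 and 172 to 198 in NoDox HP. The 10 haematopoietic markers ran the other way, at 44.6 to 77.9, 250 to 366 and 541 to 603 FPKM. Ptprc, the pan-leukocyte phosphatase, was at 0 FPKM in both NoDox HE1 libraries. Mecom, the mouse gene for the EVI1 part of the fusion, was 0.194 and 0.205 FPKM in NoDox HP and 5.18 and 5.51 in PlusDox HP, while in HE1 its groups overlapped. Runx1 levels overlapped between NoDox and PlusDox in all 3 populations. Reads of the fusion and of the mouse genes were not told apart here.

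The 6 genes have unlike known functions. Ltb encodes lymphotoxin beta, a membrane-bound ligand of the tumour necrosis factor family that anchors lymphotoxin alpha at the cell surface, signals through the receptor Ltbr to the non-canonical NF-kB pathway and is known for its part in lymph node formation. Pak1 encodes a p21-activated kinase that binds active Rac and Cdc42 and acts on the actin cytoskeleton. Stk26, also called MST4, encodes a GCKIII kinase that binds Pdcd10, a protein altered in cerebral cavernous malformations, and belongs to STRIPAK phosphatase complexes. Mogat2 encodes a monoacylglycerol acyltransferase that makes diacylglycerol and is best known in fat absorption in the gut. Slc16a9 encodes MCT9, a member of the monocarboxylate transporter family, and Sh3bgrl2 encodes a small protein of the SH3BGR family with a thioredoxin-like fold.

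The 6 loci lie on 5 chromosomes. In mm10 with RefSeq coordinates, Ltb spans 35194507 to 35196305 on chromosome 17 and Sh3bgrl2 spans 83548338 to 83600292 on chromosome 9, both on the plus strand. Pak1 spans 97788541 to 97912381 on the plus strand and Mogat2 spans 99219084 to 99238611 on the minus strand of chromosome 7. Slc16a9 spans 70245276 to 70285951 on chromosome 10 and Stk26 spans 50841174 to 50893103 on the X chromosome, both on the plus strand. All 6 are annotated as protein coding, with 3 exons in the longest form of Ltb, 4 in Sh3bgrl2, 6 in Mogat2 and Slc16a9, 12 in Stk26 and 15 in Pak1. RefSeq places another gene inside or across 4 of them, and the strand setting of the counting is not given, so reads of Mir6973a in Ltb, Gm39050 in Pak1, Gm39384 in Sh3bgrl2 and Frmd7 at Stk26 cannot be told apart from theirs.

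Promoter windows, from 250 bases before to 50 after a RefSeq start, matched 5 of the 6 genes in 6 windows, 2 of them for Pak1. No entry matched Mogat2. The bases upstream of every annotated start of Pak1, Sh3bgrl2 and Ltb are shown because the matches in capitals lie in them; other matches named below lie outside the bases shown. They are from RefSeq, GRCm38.p6, plus strand, 5′ to 3′, at chr7:97788291-97788540, chr9:83548088-83548326 and chr17:35194257-35194438, and capitals mark a cyclic AMP response motif in Pak1 and an ETS motif, on either strand, in the others.

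Pak1: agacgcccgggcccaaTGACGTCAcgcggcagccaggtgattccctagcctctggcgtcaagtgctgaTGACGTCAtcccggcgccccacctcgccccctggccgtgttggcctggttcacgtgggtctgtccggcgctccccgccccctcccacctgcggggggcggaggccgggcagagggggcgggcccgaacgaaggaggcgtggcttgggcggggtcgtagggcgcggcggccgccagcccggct

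Sh3bgrl2: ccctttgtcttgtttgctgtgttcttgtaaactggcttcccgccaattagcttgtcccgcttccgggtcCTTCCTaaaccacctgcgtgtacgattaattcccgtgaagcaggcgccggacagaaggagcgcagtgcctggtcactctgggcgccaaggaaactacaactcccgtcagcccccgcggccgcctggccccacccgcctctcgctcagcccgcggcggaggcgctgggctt

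Ltb: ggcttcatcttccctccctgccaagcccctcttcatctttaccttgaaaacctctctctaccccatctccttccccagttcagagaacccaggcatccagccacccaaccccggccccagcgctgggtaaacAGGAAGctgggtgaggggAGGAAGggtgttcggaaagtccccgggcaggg

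Both strands were searched. The RUNX letters TGTGGT occurred in 0 of the 6 windows and in 16.4% of all 29296 RefSeq windows, and the variant TGCGGT in 1 of 6, that of Sh3bgrl2, and in 6.52% of all. The letters GACAAGATA, bound by EVI1, occurred in 0 of 6 and in 0.119% of all. The letters AGATAA, typical of sites for the GATA factors, occurred in 0 of 6 and in 11.0% of all, and the AP-1 motif TGANTCA in 0 of 6 and in 7.69%. The ETS motif AGGAAG occurred in 5 of 6 windows, those of Ltb, Sh3bgrl2, Slc16a9, Stk26 and the second Pak1 window, and in 35.1% of all. The cyclic AMP response letters TGACGTCA, looked for after the Pak1 sequence had been read, occurred in the first Pak1 window at positions -234 and -182 from the start and in 1.9% of all windows. Matches to different motifs did not overlap in these windows, and TGACGTCA reads alike on both strands. Ltb had 7 CpG sites and 63.3% GC in its window and the first Pak1 window 35 and 73.0%, against medians of 8.0 and 53.3% over all windows. Such matches describe the letters in these windows only.

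Ltb, the membrane-bound ligand, was nearly absent without doxycycline. It measured 0.093 and 0.102 FPKM in NoDox HE1 and 5.11 and 5.54 in PlusDox HE1, a ratio of means of 54.6. In HE2 it measured 0.337 and 0.336 FPKM without and 10.1 and 10.3 with doxycycline, a ratio of 30.3. In HP it measured 0.848 and 0.861 FPKM without and 3.92 and 4.96 with doxycycline, a ratio of 5.2. Without doxycycline the levels ran from HE1 to HE2 to HP with no overlap, while with doxycycline the highest level was in HE2. The smaller HP ratio goes with both a higher NoDox level and a lower PlusDox level there. PlusDox means were 5.32, 10.2 and 4.44 FPKM in HE1, HE2 and HP.

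Pak1, the Rac and Cdc42 effector kinase, was present in all groups and had the smallest ratio of the 6 genes in all 3 populations, in HE1 next to that of Sh3bgrl2. Its values were 1.78 and 1.89 FPKM in NoDox HE1 and 4.42 and 4.21 in PlusDox HE1, a ratio of 2.35. In HE2 they were 3.79 and 3.56 FPKM without and 12.6 and 12.2 with doxycycline, a ratio of 3.37. In HP they were 8.34 and 9.6 FPKM without and 21.3 and 18.9 with doxycycline, a ratio of 2.24. Pak1 thus climbed from HE1 to HE2 to HP both with and without doxycycline, with no overlap between neighbouring populations.

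Stk26, the GCKIII kinase, measured 0.226 and 0.155 FPKM in NoDox HE1 and 2.0 and 1.7 in PlusDox HE1, a ratio of 9.7. In HE2 it measured 0.472 and 0.486 FPKM without and 7.26 and 8.66 with doxycycline, a ratio of 16.6. In HP it measured 1.03 and 1.51 FPKM without and 5.86 and 8.94 with doxycycline, a ratio of 5.83. The order without doxycycline was the same as for Ltb and Pak1, but the PlusDox HE2 values lay inside the PlusDox HP range.

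Mogat2, the acyltransferase, reached the highest levels of the 6 genes and ran opposite to Pak1 over the populations. It measured 8.71 and 7.18 FPKM in NoDox HE1 and 58.9 and 31.9 in PlusDox HE1, a ratio of 5.72. In HE2 it measured 2.04 and 1.75 FPKM without and 54.4 and 35.4 with doxycycline, a ratio of 23.6. In HP it measured 0.266 and 0.462 FPKM without and 4.87 and 6.08 with doxycycline, a ratio of 15.0. Its NoDox levels fell into 3 separate steps, but PlusDox HE1 and HE2 overlapped widely. The lower PlusDox value in HE1 and in HE2 was that of replicate 2, which is high in Lars2, and in HP replicate 2 was the higher.

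Slc16a9, the transporter, was low everywhere without doxycycline, at 0.352 and 0.454 FPKM in HE1, 0.218 and 0.327 in HE2 and 0.214 and 0.106 in HP. With doxycycline it was 3.62 and 2.24 FPKM in HE1, a ratio of 7.28. In HE2 it was 6.42 and 6.29 FPKM, a ratio of 23.3, and in HP 1.98 and 2.42 FPKM, a ratio of 13.7. PlusDox HE2 stood above the other populations, and PlusDox HE1 and HP overlapped.

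Sh3bgrl2, of the thioredoxin-like fold, was lowest in NoDox HE2. It measured 6.32 and 8.95 FPKM in NoDox HE1 and 18.5 and 17.7 in PlusDox HE1, a ratio of 2.37. In HE2 it measured 3.27 and 5.48 FPKM without and 15.1 and 19.2 with doxycycline, a ratio of 3.92. In HP it measured 6.69 and 7.48 FPKM without and 15.9 and 22.5 with doxycycline, a ratio of 2.71. The PlusDox ranges of the 3 populations overlap, and so do the NoDox ranges of HE1 and HP, while both NoDox HE2 libraries lay below those of HE1 and HP.

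**Figure D1:**
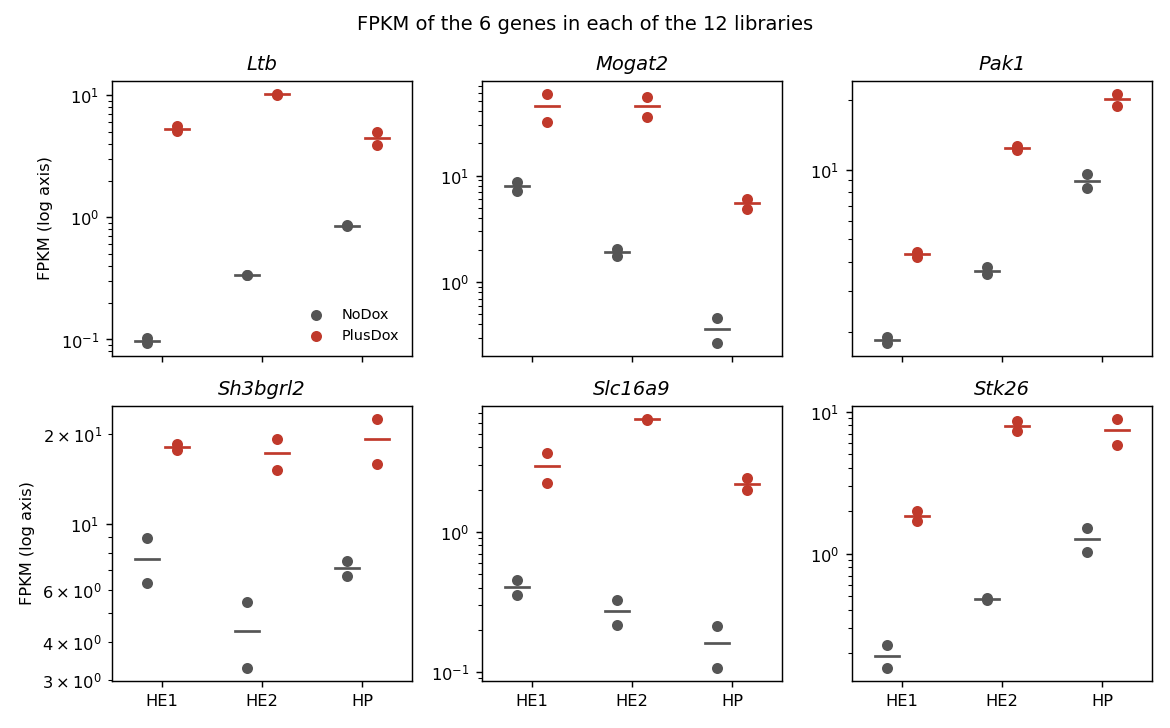
FPKM (log axis) of each of the 6 genes in each of the 12 libraries, by population, with NoDox in grey and PlusDox in red and a line at each group's mean of 2 libraries. In all 18 gene and population pairs the PlusDox libraries lie above the NoDox libraries, and Pak1 and Mogat2 run in opposite directions over the NoDox populations.

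In the fit on log2(FPKM + 1), where low genes show smaller differences than their ratios, the doxycycline differences were described for all 6 genes. For Ltb they were 2.53 in HE1, 3.06 in HE2 and 1.55 in HP (SE 0.18), and for Mogat2 2.32, 3.95 and 2.24 (SE 0.29). For Slc16a9 they were 1.47, 2.53 and 1.46 (SE 0.21), and for Stk26 1.26, 2.59 and 1.87 (SE 0.22). The difference was smallest in Pak1, at 0.91, 1.52 and 1.08 (SE 0.17), and in Sh3bgrl2 it was 1.16, 1.78 and 1.3 (SE 0.25). The difference was largest in HE2 for 6 of 6 genes, as it was for 66.7% of the 673 genes whose PlusDox libraries lay above their NoDox libraries in all 3 populations. This order does not hold for Ltb on linear ratios or with a pseudocount of 0.1, where its difference was 4.78 in HE1 and 4.56 in HE2.

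**Figure D2:**
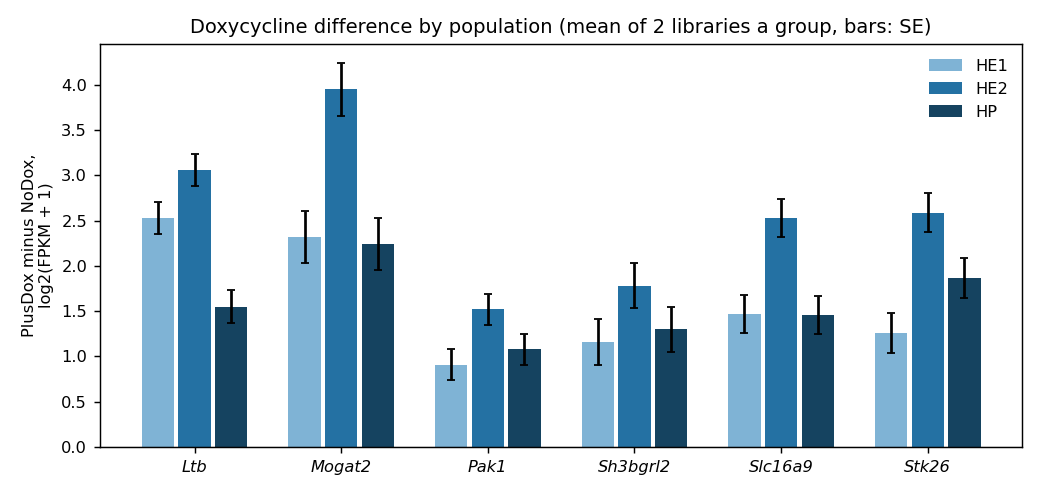
Doxycycline difference (PlusDox minus NoDox, log2(FPKM + 1)) of each of the 6 genes in HE1, HE2 and HP, with bars for the SE of the fit to 12 libraries. The tallest bar of each gene is that of HE2, up to 3.95 for Mogat2.

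All 6 genes were called higher in each population, by the choice that made the list, where 0.961% of tested genes were called higher in HE1, 3.82% in HE2 and 0.601% in HP, and 0.406%, 2.24% and 0.233% lower. Both PlusDox libraries lay above both NoDox libraries for 13.6% of tested genes in HE1, 22.3% in HE2 and 20.5% in HP, and for 5.05% in all 3, with 2.85% below in all 3. Under the call rule used here, adjusted p below 0.05, 9 genes (0.0676%) were called higher in all 3 and 0 were called lower. The other 3 were Cdkn1c, a cyclin-dependent kinase inhibitor, Hprt, a purine salvage enzyme, and Nqo1, a quinone reductase. Sh3bgrl2 stood just inside the threshold. Just outside stood Ethe1 and Sp110, with a largest limma adjusted p over the 3 populations of 0.0513 and 0.0576. Ltb and Slc16a9 passed the filter of 1 FPKM in 2 libraries only through PlusDox libraries.

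The differences were also computed within the libraries low and high in Lars2, from 1 NoDox and 1 PlusDox library in each class of HE1 and HP, as a description of their size, since the choice of the genes fixes their sign. In HE1 the difference was 2.47 in the low and 2.58 in the high libraries for Ltb, 0.90 and 0.91 for Pak1, 1.38 and 1.14 for Stk26 and 1.67 and 1.26 for Slc16a9. In HP it was 1.41 and 1.68 for Ltb, 1.26 and 0.91 for Pak1, 1.76 and 1.99 for Stk26 and 1.3 and 1.63 for Slc16a9. Mogat2 moved more, with 2.87 and 1.76 in HE1 but 2.21 and 2.28 in HP. In HE2 both NoDox libraries are low in Lars2, and with the 1 low PlusDox library they gave 3.05 for Ltb, 4.26 for Mogat2 and 2.48 for Stk26. Sh3bgrl2 had differences of 0.97 and 1.35 in HE1, 1.62 in HE2 and 1.14 and 1.47 in HP.

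Steps between populations, averaged over NoDox and PlusDox, did not choose the genes and were tested with limma over all 13316 genes. Ltb and Slc16a9 entered the tested set only through PlusDox libraries, so their step tests are not free of the choice. Their steps are given as a description. Ltb from HE1 to HE2 differed by 0.28 in NoDox and 0.82 in PlusDox, and Slc16a9 from HE2 to HP by -0.13 and -1.21. From HE1 to HE2, 4 of the 6 genes were called, 3 higher and 1 lower, with Ltb among the 3. Of all tested genes 24.5% were called, 16.2% higher and 8.34% lower. As the count takes in Ltb, no conclusion is drawn from it. Pak1 rose by 1.03 ± 0.12 (SE) on the log2 scale (limma adjusted p 0.00018) and Stk26 by 0.98 ± 0.15 (adjusted p 0.00107). The averaged difference of Ltb was 0.55 ± 0.13. Mogat2 fell by 0.80 ± 0.20 (limma adjusted p 0.0149), a call that was lost without NoDox HE1 replicate 1 (-0.74, adjusted p 0.0533) and with no filter on low values (-0.80, adjusted p 0.0536). Sh3bgrl2 differed by -0.39 ± 0.18 and was not called (limma adjusted p 0.127). The averaged difference of Slc16a9 was 0.39 ± 0.15. Without PlusDox HE1 replicate 1, the difference of Slc16a9 was 0.52.

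From HE2 to HP, 3 of the 6 genes were called, 1 higher and 2 lower, with Slc16a9 among the 2. Of all tested genes 27.5% were called, 10.3% higher and 17.2% lower. As the count takes in Slc16a9, no conclusion is drawn from it. Pak1 rose again, by 0.87 ± 0.12 (limma adjusted p 0.000192). Mogat2 fell by 1.94 ± 0.20 (limma adjusted p 2e-05). Slc16a9 was lower by 0.67 ± 0.15, given as a description because it passed the filter only through PlusDox libraries. Sh3bgrl2 differed by 0.38 ± 0.18 and Stk26 by 0.25 ± 0.15, not called (limma adjusted p 0.142 and 0.273). The difference of Ltb, also a description, was -0.29 ± 0.13. The choice of genes with small adjusted p may favour genes of small spread, which these tests share. From HE1 to HE2 the median difference of all tested genes was 0.17 as deposited and 0.031 after median scaling, so the rises of that step are read against 0.17. Scaling also moved the split of calls: 66.0% of calls from HE1 to HE2 were higher as deposited and 47.1% after median scaling, and from HE2 to HP 37.5% and 52.6%. The calls and signs of the 6 genes in both steps were the same under median scaling and quantile normalization. With only the 7 libraries low in Lars2, Mogat2 from HE2 to HP was still called and the other 6 step calls were not. Pak1 then had differences of 1.01 and 0.86 in the 2 steps. Stk26 had 0.91, Ltb 0.57 and Mogat2 -0.81 from HE1 to HE2, and Slc16a9 had -0.69 from HE2 to HP.

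Within the treatments, given as a description, Mogat2 differed from HE1 to HE2 by -1.62 in NoDox and 0.02 in PlusDox, and Stk26 by 0.31 and 1.65. From HE2 to HP Ltb differed by 0.47 in NoDox and -1.05 in PlusDox, and Slc16a9 by -0.13 and -1.21. Pak1 was higher at each step in both, by 0.72 and 1.33 and then by 1.09 and 0.65. Mogat2 and Pak1 are the pair of genes least alike over the 12 libraries, with a Pearson r of log2(FPKM + 1) of 0.011, and Ltb and Slc16a9 the most alike, at 0.952. Such values carry the doxycycline difference that chose the genes. Over the 6 NoDox libraries alone, r was -0.869 for Ltb and Slc16a9 and -0.963 for Mogat2 and Pak1, the lowest was -0.964 for Ltb and Mogat2, and the highest was 0.997 for Ltb and Pak1. These libraries are 3 populations of 2 replicates, so r there mostly follows 3 group means. Ltb and Slc16a9 were below 1 FPKM in all of them.

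**Figure D3:**
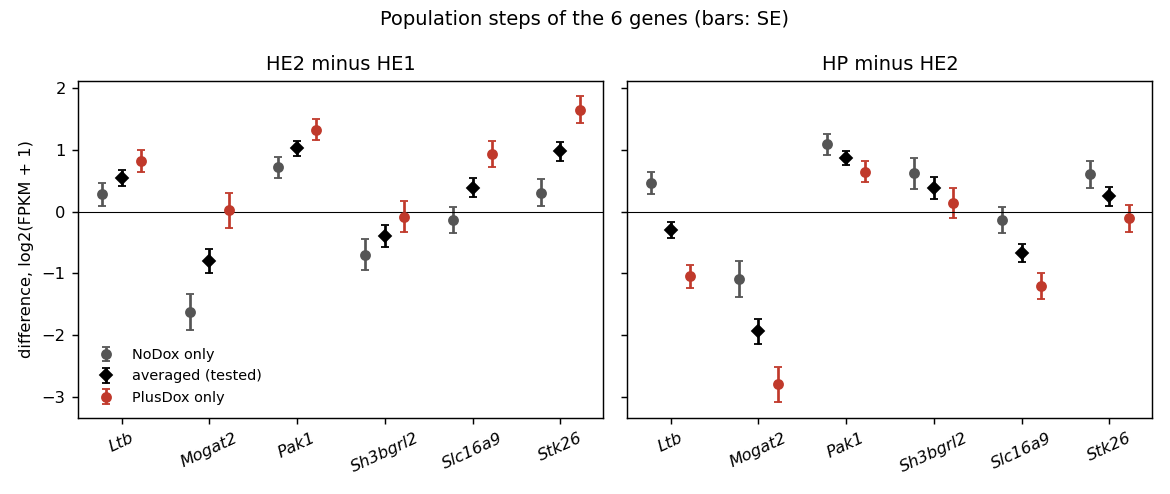
Differences between populations (log2(FPKM + 1), bars for SE) of the 6 genes, HE2 minus HE1 at left and HP minus HE2 at right, within NoDox, within PlusDox and averaged. Averaged Pak1 is above 0 in both steps, at 1.03 and 0.87, and averaged Mogat2 below 0 in both, at -0.80 and -1.94.

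The close relatives of the 6 genes were called in 0 of 27 gene and population pairs with limma, and the smallest adjusted p was 0.0571. An unadjusted p below 0.05 was found in 3 of the pairs, a threshold for which the share of all tested genes was not computed. Of all tested genes 1.37%, 6.06% and 0.834% were called in HE1, HE2 and HP, so a count of 0 is near the share of all genes. With the library class term 1 pair was called, 2 with median scaling or quantile normalization, and 1 without either 1 of the PlusDox HP replicates. These were the closest paralogs, 14 in all, of which 9 were tested. The GCKIII kinases Stk24 and Stk25 had group means of 33.8 to 47.9 and 34.1 to 55.6 FPKM, above Stk26 in every group. Pak2 had 22.8 to 33.4 FPKM, and its log2 differences were 0, -0.39 and -0.06 in HE1, HE2 and HP, against 0.91, 1.52 and 1.08 for Pak1. The SH3BGR relatives Sh3bgrl and Sh3bgrl3 had 23.3 to 49.2 and 135 to 159 FPKM, and the lactate transporters Slc16a1 and Slc16a3 had 12.8 to 29.2 and 6.18 to 18.5 FPKM. Differences of the 9 tested relatives ran from -0.82 for Slc16a1 to 0.97 for Sh3bgrl, both in HE2. In HE1 and HP, Sh3bgrl had 0.6 and 0.06 and Slc16a1 had 0.34 and -0.38. The untested 5 stayed at or below 0.991 FPKM in every library: Mogat1 at or below 0.0333 and Lta at or below 0.0827. Lta encodes lymphotoxin alpha, which pairs with the product of Ltb.

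**Figure D4:**
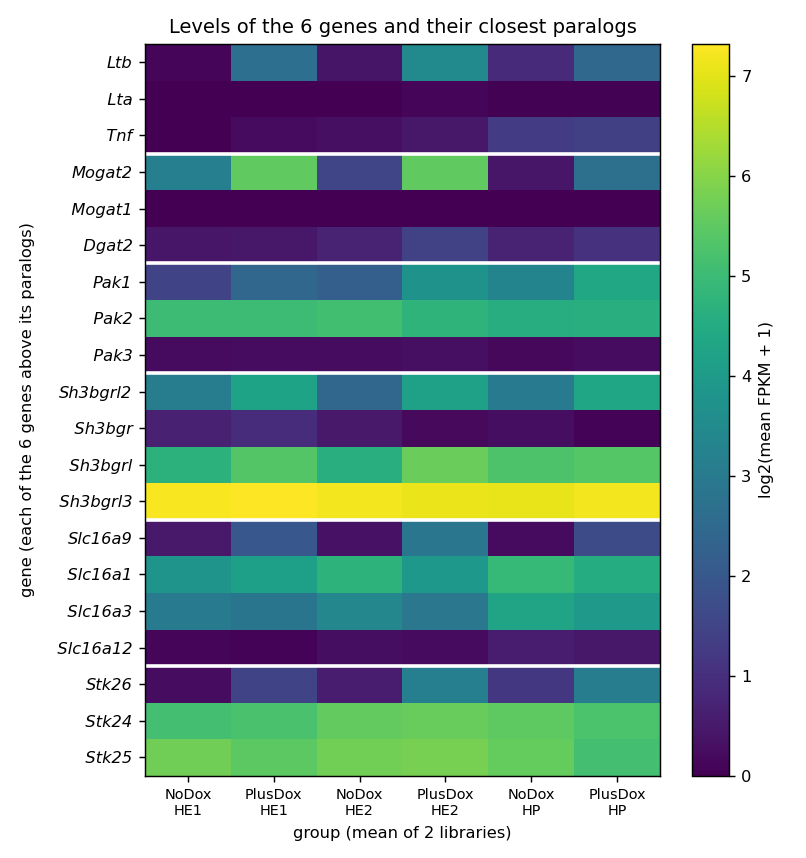
Mean level, as log2(mean FPKM + 1), of each of the 6 genes and of its closest paralogs in the 6 groups (2 libraries each), shown by colour with the paralogs under each gene. Stk24, Stk25 and Pak2 are at high levels in all groups, while Mogat1 and Lta stay near 0.

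Of 164 genes in 6 pathway and family lists around the 6 genes, 162 had a value and 135 were tested. In HE1, 1 was called higher and 0 lower, where 1.37% of tested genes were called in either direction. In HE2, 9 were called higher and 3 lower, where 6.06% of tested genes were called. In HP, 1 was called higher and 0 lower, where 0.834% were. In at least 1 population 13 of the 135 were called, 9.63%, against 6.9% of all tested genes. The lists were chosen with earlier results of these data known, so no conclusion is drawn from the 2 shares. The same holds for the counts of single lists below, to be read beside the share of all tested genes in each population. At an unadjusted limma p below 0.05 there were 19, 33 and 14 in HE1, HE2 and HP. The share of all tested genes at that threshold was not computed, so these counts are not read as a result.

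In the lymphotoxin and NF-kB list, 24 genes were tested and 1 was called, Nfkbie, an inhibitor of NF-kB, in HE2 (3.92 to 9.94 FPKM, 1.18 ± 0.29 on the log2 scale, limma adjusted p 0.0345). The list's median differences were 0.12, 0.21 and 0.10 in HE1, HE2 and HP, where medians of all tested genes were -0.07, -0.05 and 0. Ltbr, the receptor of the Ltb ligand, was present in all groups, with means of 35.3 and 36.9 FPKM in HE1, 31.9 and 39.3 in HE2 and 17.9 and 25.4 in HP without and with doxycycline, and was not called. Map3k14, the kinase of the non-canonical pathway, had log2 differences of 0.72, 0.68 and 0.03, and Relb of 0.18, 0.61 and 0.46, with no call.

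In the PAK and Rac/Cdc42 list of 32 tested genes, 4 were called higher and 1 lower in HE2 and 1 higher in HP, with medians of -0.04, 0.02 and 0.16. Of all tested genes 6.06% were called in HE2 and 0.834% in HP. Arhgef6, an exchange factor that binds PAK kinases, rose in HE2 from 0.999 to 5.25 FPKM (1.65 ± 0.24, limma adjusted p 0.00274), and Ssh3, a cofilin phosphatase, from 1.75 to 9.51 FPKM (1.95 ± 0.25, adjusted p 0.00146). Rhoj, a Cdc42-like GTPase, rose from 40.4 to 75.4 FPKM (0.90 ± 0.24, limma adjusted p 0.0474). Dock2, a Rac activator of blood cells, rose in HE2 (0.91 ± 0.21, limma adjusted p 0.0258) and in HP (1.03 ± 0.21, adjusted p 0.046). Nf2, merlin, which PAK kinases phosphorylate, fell from 29.9 to 16.7 FPKM in HE2 (-0.81 ± 0.19, limma adjusted p 0.0297). Rac1 and Cdc42 had no call, with log2 differences of 0.19, -0.16 and 0.19, and 0.04, 0.39 and 0.04.

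Of 27 tested genes of the GCKIII, CCM and STRIPAK list, with medians of -0.06, 0.15 and 0.02, 1 was called: Ezr, the membrane-actin linker ezrin, a known substrate of Stk26, in HE1 (8.38 to 22 FPKM, 1.27 ± 0.24, limma adjusted p 0.025). Pdcd10, the partner of the GCKIII kinases, had log2 differences of 0.10, 0.73 and -0.04 with no call. In the acylglycerol and lipid droplet list of 25, with medians of -0.13, -0.02 and 0.08, Lpin3, a phosphatidate phosphatase (0.90 ± 0.21, limma adjusted p 0.0285), and Plin3, a lipid droplet coat protein (0.73 ± 0.18, adjusted p 0.0362), rose in HE2. Dgat1 and Dgat2, which turn the product of Mogat2 into triglyceride, had no call, and Dgat2 went from 0.623 to 1.68 FPKM in HE2 (0.72, limma adjusted p 0.0579).

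Of 19 tested genes of the monocarboxylate and carnitine list, with medians of 0.15, 0.13 and 0.09, 3 were called in HE2. The share of all tested genes called there was 6.06%. Slc16a4 rose from 1.33 to 5.63 FPKM (1.52 ± 0.27, limma adjusted p 0.00737) and Emb, a chaperone of such transporters, from 13.5 to 30.2 (1.12 ± 0.28, adjusted p 0.0372). Slc16a10, an aromatic amino acid transporter, fell from 3.70 to 1.51 FPKM (-0.90 ± 0.20, limma adjusted p 0.0214). Of 8 tested genes of the SH3BGR and glutaredoxin list, with medians of 0.04, -0.06 and 0.01, Txn2, mitochondrial thioredoxin, fell from 47.0 to 11.4 FPKM in HE2 (-1.97 ± 0.29, limma adjusted p 0.00274). Of the 12 list genes called in HE2, only Arhgef6, Ssh3 and Txn2 were still called without NoDox HE2 replicate 1, and those 3 and Slc16a4 without PlusDox HE2 replicate 1 or without replicate 2. Without NoDox HE2 replicate 2, 8 of the 12 were still called, with only the groups compared 5, with no filter on low values 4, and with only the libraries low in Lars2 0. Ezr was not called without NoDox HE1 replicate 1 or 2 or PlusDox HE1 replicate 1, and neither Ezr nor Dock2 in HP was called with those 3 settings. Dock2 in HP was called in 3 of 12 fits that each left out 1 library, and Rhoj in HE2 in 1 of 12.

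The nearest 2 tested genes on each side of each of the 6 loci, 24 in all, were called 1 time in HE1, a share of 4.17%, 5 times in HE2, a share of 20.8%, and 1 time in HP, a share of 4.17%. The shares of all tested genes were 1.37%, 6.06% and 0.834%. Their median log2 differences were -0.10, 0.18 and 0.11, against -0.07, -0.05 and 0 for all tested genes. Beside Ltb, Lst1, a leukocyte-specific transcript 6067 bases away, was higher in HE2 (0.97 ± 0.23, limma adjusted p 0.0312) and HP (1.35 ± 0.23, adjusted p 0.0219), with -0.80 in HE1, and Tnf at 3062 bases was not called. Beside Mogat2, Dgat2 at 36371 bases was not called. Beside Pak1, Aqp11, an aquaporin gene 50294 bases away, rose in HE2 (1.60 ± 0.30, limma adjusted p 0.00951), while Capn5, a calpain gene 209178 bases away, fell in HE1 (-1.35 ± 0.29, adjusted p 0.0433) and HE2 (-1.07 ± 0.29, adjusted p 0.0494).

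Beside Sh3bgrl2, Hmgn3, a nucleosome-binding protein gene 400980 bases away, rose in HE2 (1.36 ± 0.36, limma adjusted p 0.0491). Beside Slc16a9, Ank3, an ankyrin gene 217840 bases away, fell in HE2 (-1.79 ± 0.27, limma adjusted p 0.00281), the direction opposite to Slc16a9. None of the 4 neighbours of Stk26 was called. Of these neighbour calls, only that of Ank3 was kept in all 12 fits that each left out 1 library and with no filter on low values, and 0 were kept with only the libraries low in Lars2. The call of Lst1 in HE2 was lost without any 1 of the 4 HE2 libraries, and in HP without any 1 of the 4 HP libraries. Aqp11 was lost without NoDox HE2 replicate 1 or PlusDox HE2 replicate 2, and Capn5 and Hmgn3 were kept in at most 5 of 12 such fits.

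Over the 12 libraries, the 3 tested genes most like each of the 6 by Pearson r of log2(FPKM + 1) are given as a description, since all of them share the libraries. For Ltb they were Galnt3 (0.973), Krt18 (0.964) and Slc35d2 (0.962). For Mogat2 they were Fgd2 (0.971), Serping1 (0.966) and Unc13b (0.964), and for Pak1 Adcy7 (0.98), Pstpip1 (0.979) and Fam132a (0.978). Those for Sh3bgrl2 were lower, with Dusp5 at 0.942, Pdlim2 at 0.937 and Cdkl2 at 0.933. For Slc16a9 they were Cyp4v3 (0.977), Slc22a18 (0.975) and Eps8l2 (0.97), and for Stk26 Nqo1 (0.97), Car5b (0.967) and Clec2d (0.96). Krt18, a keratin of simple epithelia, and Nqo1 were among these genes.

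Because Ltb is a lymphoid gene and Mogat2 an intestinal one, markers of such cells were examined. The 12 lymphoid markers summed to 4.52 to 5.09 FPKM in NoDox HE2 and 11.8 to 14.7 in PlusDox HE2, to 2.08 to 2.72 and 4.67 to 7.83 in HP, and to 3.37 to 4.17 and 3.8 to 6.65 in HE1. Cd3e, Cd3g and Cd2 were at 0 FPKM in every library. Of 2 tested, Cd79b, a B-cell receptor component, was called higher in HE2 and HP, where 3.82% and 0.601% of all tested genes were. Its mean went from 1.56 to 7.68 FPKM in HE2 and from 1.13 to 4.78 in HP, so these sums lean on 1 gene. Ebf1, also tested, had log2 differences of 0.28, 0.5 and -0.02 in HE1, HE2 and HP, with no call. The 12 epithelial and endoderm markers summed to 43.0 to 46.1 FPKM in NoDox HE1 and 81.6 to 104 in PlusDox HE1, to 35.5 to 37.6 and 83.9 to 84.9 in HE2, and to 31.2 to 45.5 and 47.8 to 75.7 in HP. Krt18 was called higher in HE1 and HE2 among 4 tested, where 0.961% and 3.82% of all tested genes were. Its mean went from 17.7 to 50.0 FPKM in HE1, 17.2 to 58.5 in HE2 and 21.5 to 37.2 in HP, so these sums lean on it. The others tested had no call: log2 differences were 0.2, 0.04 and 0.12 for Krt8, 1.16, 0.89 and 1.25 for Krt19 and -0.03, 0.79 and 0.76 for Apoa1. Epcam and Cdh1 stayed at or below 0.429 and 0.51 FPKM. Alb was at 0 FPKM in every library. The endothelial sums in PlusDox HE1, HE2 and HP were 1850 to 2150, 1730 to 1810 and 312 to 420 FPKM, above NoDox in HE2 and HP. Of the 10 endothelial markers, Esam, Egfl7 and Cldn5 were called higher in HE2 and Cdh5 and Egfl7 in HP, with 0 called lower. Without a call, Eng (-0.43) and Kdr (-0.12) ran lower in HE2 and Emcn (-0.18) in HP. In HE1, Tek (-0.69), Kdr (-0.48), Tie1 (-0.22) and Eng (-0.18) ran lower without a call. The rest of the 10 ran higher in each population. The haematopoietic sums in PlusDox, 36.6 to 74.9, 228 to 369 and 508 to 679 FPKM, overlapped NoDox in each population, but single members of that list were called higher. In HE2 these were Ptprc, from 0.879 to 11.6 FPKM, Coro1a, an actin-binding protein of leukocytes, from 5.21 to 50.4, and Spn, the sialophorin CD43, from 0.604 to 3.76. In HE1 it was Laptm5, from 12.8 to 30.7 FPKM, and in HP Spn, from 3.09 to 8.1. Of the 10, 0 were called lower, where 0.406%, 2.24% and 0.233% of tested genes were in HE1, HE2 and HP. Other members ran lower without a call. In HE2 the log2 differences were -0.81 for Myb, -0.74 for Itga2b, -0.62 for Gfi1b, -0.3 for Vav1, -0.26 for Gata1 and -0.24 for Runx1. In HE1 they were -0.83, -1.22, -0.5, -0.43, -0.22 and -0.07 in that order. The other uncalled members, Laptm5 in HE2 (0.41) and Coro1a (1.02), Spn (0.26) and Ptprc (0.05) in HE1, ran higher. In HP, Runx1 (-0.97), Gata1 (-0.56) and Gfi1b (-0.43) ran lower without a call. Ptprc (0.87), Coro1a (0.81), Laptm5 (0.53), Itga2b (0.16), Vav1 (0.1) and Myb (0.02) ran higher in HP without a call. The part of these shifts in the levels of the 6 genes was not tested.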

How the data were processed

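RNA was measured in 12 libraries by stranded total RNA sequencing, paired-end in a single pool. Per the submitters' processing notes, Trimmomatic 0.32, HISAT2 2.1.0 and StringTie 1.3.3 were used with mm10. For the annotation and strand setting, the sources used here give nothing. The deposited values were read as FPKM made by the authors, an inference from StringTie and from sums that differ between libraries. Each file repeated 2 to 4 names, whose values were summed.

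Genes at 1 FPKM or more in at least 2 of 12 libraries were tested, 13316 in all, as log2(FPKM + 1). limma 3.58.1 in R 4.3.3 was fitted with 6 group means and an intensity trend (6 residual and 5.83 prior degrees of freedom), two-sided, with Benjamini-Hochberg adjustment, called at an adjusted p below 0.05. It was tested on simulated data. Python 3.11.15 with pandas 2.3.3 and matplotlib 3.10.9 made the tables and plots. The 6 genes and all lists were chosen with earlier results of these data known.

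Named genes were the 6 genes, called list genes, closest paralogs, the nearest 2 tested neighbours on each side, the 3 genes of highest r for each, other genes called in all 3 populations, and markers. Names matched the RefSeq table in 32501 of 35976 cases. Alternatives were a pseudocount of 0.1, no filter, quantile normalization, median scaling, only the groups compared, the replicate number as a block, a term for library class (Lars2 above 1000 FPKM), leaving out each library and, added after the data were seen, only the libraries low in Lars2.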

Additional observations from a re-analysis of the deposited data

Results flagged for a closer look

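Opposite directions between populations stood out for a neighbour and for a relative of the 6 genes. Lst1, beside Ltb, had a doxycycline difference of 0.97 in HE2 and 1.35 in HP on the log2 scale, with both PlusDox libraries above both NoDox libraries, and of -0.80 in HE1, with both below. Slc16a1, a lactate transporter of the family of Slc16a9, had a difference of 0.34 in HE1, with both PlusDox libraries above both NoDox libraries, and of -0.82 in HE2, with both below. The value of Lst1 in HE1 (limma adjusted p 0.146) and those of Slc16a1 in HE1 and HE2 (0.789 and 0.0571) were not called. Both PlusDox libraries lay above both NoDox libraries for 13.6% of tested genes in HE1, 22.3% in HE2 and 20.5% in HP. The share with both PlusDox libraries below was not computed for single populations, so these orders are not read as a result. The difference between populations was not tested for either gene.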

How the results depend on the processing

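Counts of all genes called with doxycycline, 182 in HE1, 807 in HE2 and 111 in HP, moved with the setting. With only the groups compared they were 2, 349 and 16, with median scaling 308, 1600 and 181, and with the replicate block 459, 2296 and 305. Quantile normalization gave 351 in HE1 and 1824 in HE2, a pseudocount of 0.1 gave 97 in HE1, no filter gave 450 in HE2, and the library class term gave 1254 in HE2 and 175 in HP. In HE2, 63.1% of calls were higher as deposited, 54.9% after median scaling, 51.6% after quantile normalization, 48.5% without PlusDox HE2 replicate 1 and 45.6% with the replicate block. Leaving out 1 library gave 2 to 191 in HE1, 172 to 877 in HE2 and 10 to 124 in HP, lowest without NoDox HE1 replicate 1, NoDox HE2 replicate 1 and NoDox HP replicate 1. The steps had 3266 calls from HE1 to HE2, 5027 with the replicate block and 1752 to 3257 with 1 library left out, and 3660 from HE2 to HP, 2905 to 3722 with 1 left out. Of the 6 genes, 3 to 5 were then called from HE1 to HE2 (4 with all) and 3 to 3 from HE2 to HP. These counts take in Ltb and Slc16a9, whose step tests are not free of the choice. With only the 7 libraries low in Lars2, added after the data were seen, calls were 0, 7 and 3 with doxycycline and 220 and 1091 for the steps, and 0 and 1 of the 6 genes were called in the steps, with 0 signs changed. That fit has fewer samples. For the other changes the cause was not tested. Genes called higher in all 3 populations numbered 9, and 0 to 33 under the alternatives. Same-numbered replicates correlated between groups from -0.1 to 0.526, above 0.1 in 12 of 15 pairs of groups, and the other 3 all involve NoDox HE1. The labels give no shared source for a number, so the numbers were not taken as pairs. With the replicate block Sh3bgrl2 was called in both steps (limma adjusted p 0.0322 and 0.036), and the paralogs had 3 calls. The 2 libraries per group and the unknown depth limit all values, most for Ltb, Slc16a9 and Stk26 near 0 FPKM.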
